A study of Mus musculus with 6 samples.

Results

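Hlf, Dbp, Tef and Nfil3 are 4 genes for transcription factors with a basic leucine zipper (bZIP), the domain through which such proteins pair and grip DNA. They were chosen by name, as the 3 genes of the PAR bZIP family (Hlf, Dbp and Tef, which share a proline- and acidic-rich region) and the gene of the repressor that competes with them, out of 23574 genes and other features counted in the series. All 4 were found in the count tables. Haematopoietic stem cells were freshly sorted from C57BL/6 mice by surface markers: no lineage markers, Sca-1 and c-Kit present, CD34 and Flt3 absent. They came from animals labelled HLF KO and from their wild-type littermates, and no treatment is listed. Each genotype had 3 libraries of 3000 cells, made from total RNA. Which part of Hlf was deleted, how old the mice were and whether each library came from its own mouse is unstated in the labels, so p-values measure the spread between libraries, which may be partly technical.

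PAR bZIP proteins bind as pairs to a short palindromic DNA element, the D-box, and switch genes on. Nfil3, also known as E4BP4, binds the same element and switches genes off. In liver and brain the CLOCK and BMAL1 proteins drive Dbp, Tef and Hlf through E-boxes in a daily rhythm, and the family is known there for detoxification, vitamin B6 metabolism and output of the clock. In blood, Hlf is known as a marker and regulator of stem cells and as part of the E2A-HLF fusion of a childhood leukaemia, while Nfil3 is known for its role in natural killer and innate lymphoid cells.

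The libraries of the wild type held 8346335 to 9902102 counts and those of the knockout 10182464 to 11998296, so every knockout library was deeper. The counting leaves genes with several listed transcripts short: over the 6 libraries the median total was 79 counts for features with 1 listed transcript, 3 for those with 2 and 2 for those with 3 or more. Hlf, Dbp and Nfil3 have 1 listed transcript each and Tef has 2. Kit and Ly6a, whose proteins the cells were sorted for and which have 2 and 6 listed transcripts, had 1 and 0 counts in total. Of the genes whose proteins were absent by the sort, Cd34, with 2 listed transcripts and so likely undercounted, had 24 counts in total. Flt3, with 1 listed transcript, had counts in every library. It stood at 11.2, 33.1 and 17.7 CPM in wild type and 10.8, 18.65 and 8.92 CPM in knockout. Its change was -0.69 on the log2 scale, knockout over wild type (SE 0.75, adjusted p = 0.867 by edgeR). The 9 stem cell markers reported here had counts in every library. Wild-type library 3 stood apart in markers of other cells. Its 11 granulocyte-monocyte markers summed to 2725 CPM, the usual measure of a count relative to the normalised size of its library, against 77.9 to 252.5 CPM in the other 5 libraries, and its 10 B-cell markers to 5609 CPM, against 139.8 to 2057 CPM. Other summed markers differed between the genotypes in every library. B-cell markers were at 760.0 to 5609 CPM in wild type and 139.8 to 300.1 CPM in knockout. Natural killer and T-cell markers (11 genes) were at 120.7 to 246.9 CPM in wild type and 342.9 to 622.2 CPM in knockout. Megakaryocyte markers (7 genes) were at 420.2 to 615.3 and 753.6 to 1016 CPM. These sums rest in large part on few genes. In wild type and knockout, Nkg7 stood at 71.4 to 156.3 and 254.0 to 462.7 CPM. Pf4 stood at 96.4 to 185.0 and 353.1 to 506.5 CPM, and Jchain at 562.1 to 5074 and 92.9 to 235.5 CPM. Log2 fold changes were positive for 4 and negative for 3 of 7 tested natural killer and T-cell markers. They were positive for 5 and negative for 2 of 7 tested megakaryocyte markers, and negative for all 6 tested B-cell markers.

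Per length of transcript, Hlf was the most abundant of the 4 genes in wild-type stem cells, and in the knockout it fell to a low remainder seen in every library. It stood at 1370, 1662 and 1114 CPM in wild-type libraries 1, 2 and 3 and at 28.3, 37.6 and 37.3 CPM in knockout libraries 1, 2 and 3. The lowest wild-type library was 29.65 times the highest knockout library, while the highest and lowest libraries differed 1.49 times within wild type and 1.33 times within knockout. Knockout library 1 kept 2.045% of the mean wild-type level, library 2 kept 2.72% and library 3 kept 2.70%. The log2 fold change was -5.33 (SE 0.26, edgeR quasi-likelihood adjusted p = 1.91e-06), a 40.2-fold fall (95% interval 27.1 to 59.6). Hlf was the 1 gene that passed among 10204 tested, which is 0.0098% of them. DESeq2 called 170 of 10927 (1.56%), and at an unadjusted p under 0.05 edgeR had 7.27% of genes, 4.65% lower and 2.63% higher in knockout. Genotypes did not overlap for 14.4% of genes, 6.85% lower and 7.52% higher. The remainder rested on 309, 399 and 431 counts, well above the 3 counts that a value of 0 allows, and was not assigned to exons. In such bulk samples fewer cells that carry a transcript and less transcript per cell cannot be told apart. Summed stem cell markers moved the same way on a smaller scale, at 565.3 to 701.2 CPM in wild type and 326.8 to 424.7 CPM in knockout. Of 9 tested stem cell markers, 4 were lower at an unadjusted p under 0.05 by edgeR, and 3 had positive log2 fold changes. The summed megakaryocyte and T and natural killer cell markers were higher, and those of B cells lower, in every knockout library. As given above, those 3 sums rest in large part on few genes. The part of these marker differences in the Hlf values and in the gene lists below was not tested.

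**Figure D1:**
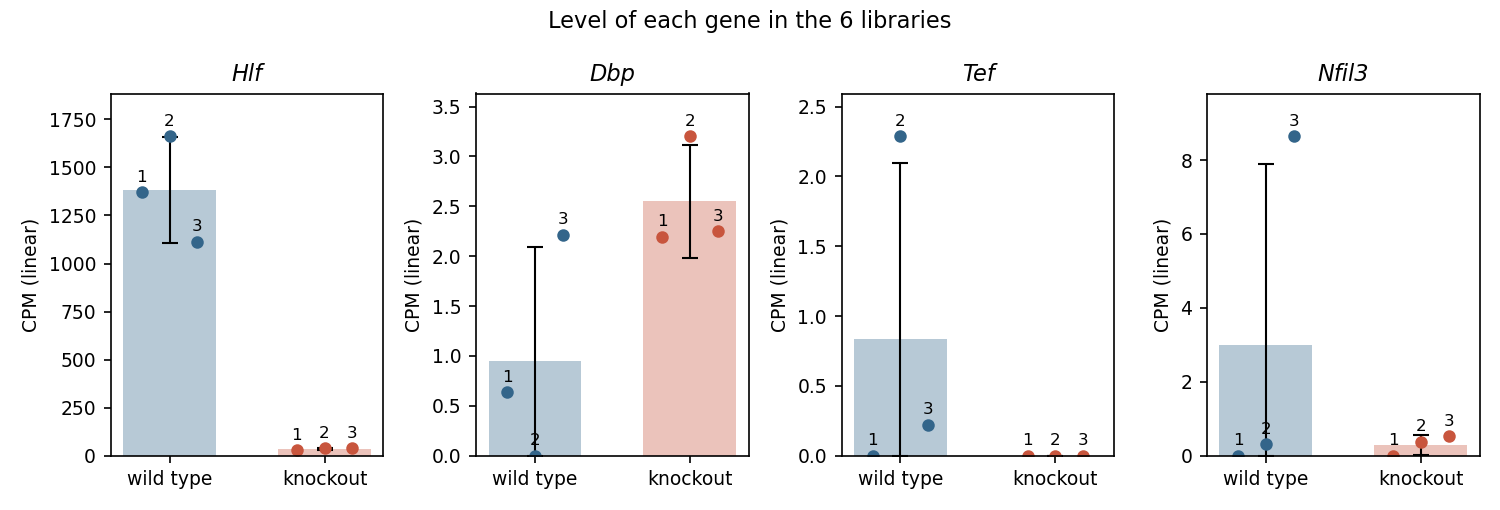
Level of Hlf, Dbp, Tef and Nfil3 in CPM on linear axes, 1 panel a gene, each with its own scale. Points are libraries with their replicate number, bars are means and error bars are SDs over 3 libraries, stopped at 0. Hlf separates the genotypes, whereas the Tef and Nfil3 bars of the wild type each rest on 1 library.

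The 250 bases before the annotated start of Hlf are shown with the sites searched for. RefSeq (build GRCm38.p6) gives these 250 bases on the minus strand, chr11:90390918-90391167, written 5′ to 3′, with capitals for a match to TGACGTCA, the site of the CREB relatives of the bZIP proteins.
Hlf: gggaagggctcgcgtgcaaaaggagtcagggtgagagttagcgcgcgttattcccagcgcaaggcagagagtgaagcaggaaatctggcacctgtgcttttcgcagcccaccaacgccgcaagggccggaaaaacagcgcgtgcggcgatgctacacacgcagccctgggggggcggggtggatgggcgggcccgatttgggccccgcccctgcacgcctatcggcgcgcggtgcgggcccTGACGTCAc
TGACGTCA stood in 588 of 32851 promoter windows of 300 bases (1.79%). Neither D-box spelling searched, TTACGTAA or TTATGTAA on either strand, nor the E-box CACGTG was found in the windows of Hlf, Dbp or Nfil3. Sites outside the windows or in other spellings were not searched. Both Tef windows held CACGTG, which 7.15% of all windows hold. These 2 stretches, on the plus strand of GRCm38.p6 at chr15:81802536-81802561 and chr15:81811266-81811291, are shown because Tef is the member with an E-box at each of its annotated starts, with the E-box in capitals.
Tef start 1: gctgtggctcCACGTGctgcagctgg
Tef start 2: cctggcccagCACGTGtctacatcgt

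Dbp, the albumin D-box binding protein and in other tissues the most rhythmic of the family, was near the detection limit in these cells. Wild-type libraries 1, 2 and 3 gave 5, 0 and 20 counts, and the knockout libraries gave 24, 34 and 26, or 0.636, 0 and 2.22 CPM against 2.20, 3.20 and 2.25 CPM. Wild-type libraries 1 and 2 were lower than all knockout libraries, but wild-type library 3 stood marginally above knockout library 1, so the genotypes overlapped. The mean of Dbp was 0.951 ± 1.14 CPM for wild type against 2.55 ± 0.566 CPM for knockout (SD, n = 3 each). The log2 fold change was 1.41 (SE 1.63), with a 95% interval from -2.15 to 4.97 that allows anything from 0.226 times to 31.4 times the wild-type level, and edgeR's adjusted p was 0.881. The two-sided exact permutation p of log2 CPM was 0.2, where 3 against 3 libraries give no p below 0.1. In wild-type library 2 the count of 0 allows a level of up to 0.312 CPM. Leaving out wild-type library 2 brought the log2 fold change to 0.84, and leaving out wild-type library 3 to 2.98, without a call in either case. The annotation places Sphk2, the gene of a sphingosine kinase, across part of Dbp on the opposite strand, and whether the counting used strand is unstated, so reads where these genes overlap cannot be assigned to one of them. Wild-type libraries gave Sphk2 19, 40 and 5 counts, knockout libraries 3, 11 and 9. With 3 listed transcripts, Sphk2 is likely undercounted.

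Tef, the thyrotroph embryonic factor, could not be measured. Wild-type libraries 1, 2 and 3 gave 0, 22 and 2 counts, and all 3 knockout libraries gave 0. In CPM the wild-type values were 0, 2.29 and 0.222. Wild-type library 2 thus gave 91.7% of all Tef counts, and of its 2 listed transcripts, 1 had 0 counts in every library while the other held all 24. The gene did not pass the filter on low counts, so the all-gene test holds no value for it. DESeq2 and edgeR without the filter fitted it at unadjusted p of 0.148 and 0.048, the latter 0.578 after adjustment. A count of 0 in the knockout libraries allows 0.274, 0.283 and 0.26 CPM, and the exact permutation p of log2 CPM was 0.4. Because genes with several listed transcripts are undercounted, these values are not read as absence of Tef. The antisense gene Gm17597 overlaps it as well. Its neighbours Zc3h7b and Tob2, with 1 listed transcript each, stood at log2 fold changes of 0.45 (SE 0.35) and 0.03 (SE 0.33), and neither passed.

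Nfil3, the repressor of the D-box, was seen almost only in wild-type library 3. Counts were 0, 3 and 78 for wild-type libraries 1, 2 and 3, against 0, 4 and 6 for the knockout, so wild-type library 3 held 96.3% of the wild-type counts. These are 0, 0.312 and 8.64 CPM for wild type, against 0, 0.377 and 0.519 CPM. The other 2 wild-type libraries lay at the low end of the range of the knockout libraries, and without wild-type library 3 the mean difference, knockout minus wild type, went from -2.69 to 0.142 CPM. The gene did not pass the filter on low counts, and the exact permutation p of log2 CPM was 0.9. Granulocyte-monocyte and B-cell markers were highest in the same library, where 10 of the 11 and 10 of the 10 markers had counts. Within it Cebpa stood at 22.5 CPM and Cebpe at 5.10 CPM, both genes of factors known from granulocyte development, and neither exceeded 2.16 CPM elsewhere. Whether these cells account for the Nfil3 counts was not tested. The innate lymphoid factors Id2, Tox, Tcf7, Gata3 and Zbtb16 were tested, and none passed, with log2 fold changes from -0.55 (Tox) to 0.76 (Tcf7) and a list median of -0.16, against -0.05 for all tested genes. That median has no stable sign, at 0.39 without wild-type library 1, 0.30 without knockout library 2, 0.19 by limma-voom and -0.62 without wild-type library 3. Eomes, with 2 listed transcripts, had 0 counts.

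Compared per length of transcript, Hlf outweighed its relatives in both genotypes. In CPM per kilobase Hlf made up 99.9%, 99.8% and 97.3% of the sum of the 4 genes in wild-type libraries 1, 2 and 3, and 80.7%, 77.5% and 81.7% in knockout libraries. Dbp took 0.142%, 0% and 0.594% of that sum in wild type and 19.3%, 20.3% and 15.1% in knockout. The 2 ranges do not overlap, and since Hlf is part of the sum and is the deleted gene, a larger Dbp share says nothing on the level of Dbp. The mean knockout remainder of Hlf was 6.10 CPM per kilobase, 4.39 times that of Dbp (1.39 CPM per kilobase). Among 9147 tested genes with 1 listed transcript and a known length, Hlf ranked 249, 208 and 280 in the wild-type libraries, where more than 96.9% of genes lay below it, and 6660, 6055 and 6121 in knockout. Dbp ranked between 7830 and 8880 in every library. Tef enters these shares with its undercounted values.

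**Figure D2:**
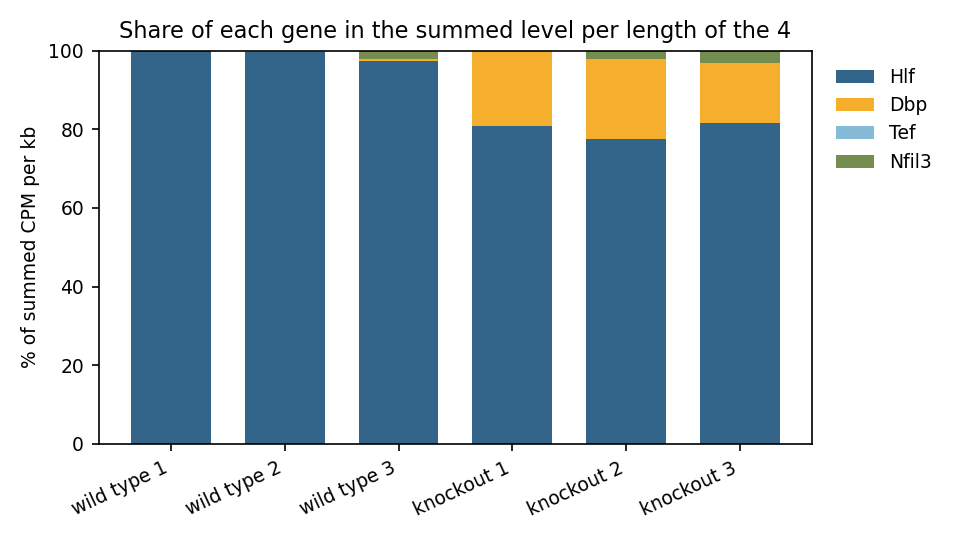
Share of Hlf, Dbp, Tef and Nfil3 in their summed CPM per kilobase, in percent, for each of the 6 libraries. Hlf takes 97.3% or more in each wild-type library and 77.5% to 81.7% in each knockout library.

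The wider bZIP families set these levels in context. Among 32 tested bZIP genes with 1 listed transcript, Hlf was the fifth, the third and the second highest per length in wild-type libraries 1, 2 and 3. In the mean of the wild type it ranked 4, after the AP-1 genes Fos (636.4 CPM per kilobase) and Fosb (284.5) and the CREB relative Atf1 (275.0), at 245.0 CPM per kilobase. The wild-type libraries of Hlf, Fosb and Atf1 overlapped, and those of Fos were all above those of Hlf. In the knockout mean Hlf ranked 19. Dbp ranked 30 and 27 in the means of the genotypes. The C/EBP genes, whose proteins are the nearest relatives in DNA binding, gave 4 of 6 tested members, all with negative log2 fold changes and 0 at an unadjusted p under 0.05, where 4.65% of all tested genes were lower at that p and 2.63% higher. Their median of -1.35 became 0.19 without wild-type library 3, -0.365 without wild-type library 1 and -0.78 without knockout library 1. It was -0.98 without knockout library 2, -1.48 without knockout library 3 and -1.70 without wild-type library 2. When library 1 or 2 of either genotype was left out, 5 members were tested, so the set of genes changed too. Cebpg, the most abundant of them, stood at -0.27 (SE 0.30) and the stress factor gene Ddit3 at -1.46 (SE 1.03).

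Of 41 other bZIP genes, 27 were tested and none passed edgeR's test. Negative log2 fold changes were found for 20 of them (74.1%, against 52.8% of all tested genes), and 5 were lower at an unadjusted p under 0.05 (18.5%, against the background of 4.65%), with 0 higher. Those 5 became 2 without knockout library 2, 3 without knockout library 1 and 6 without knockout library 3. Of all tested genes 309 of 10756, 362 of 10708 and 419 of 10746 were lower in these fits, in that order. With all libraries it was 474 of 10204. The list median was -0.49. As the list was chosen with earlier results of these data known, its share is no independent test. The 4 of smallest p were Fos (-1.10, SE 0.27, adjusted p = 0.429), Fosb (-1.08, SE 0.31), Junb (-1.35, SE 0.47) and Creb3 (-2.39, SE 0.85), a membrane-bound relative of CREB. Creb3 stood at 25.7, 45.8 and 21.5 CPM in wild type and at 3.11, 2.26 and 12.4 CPM in knockout, without overlap. Atf1 was the fifth, outside the naming rule, at -1.01 (SE 0.43), with overlapping genotypes.

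**Figure D3:**
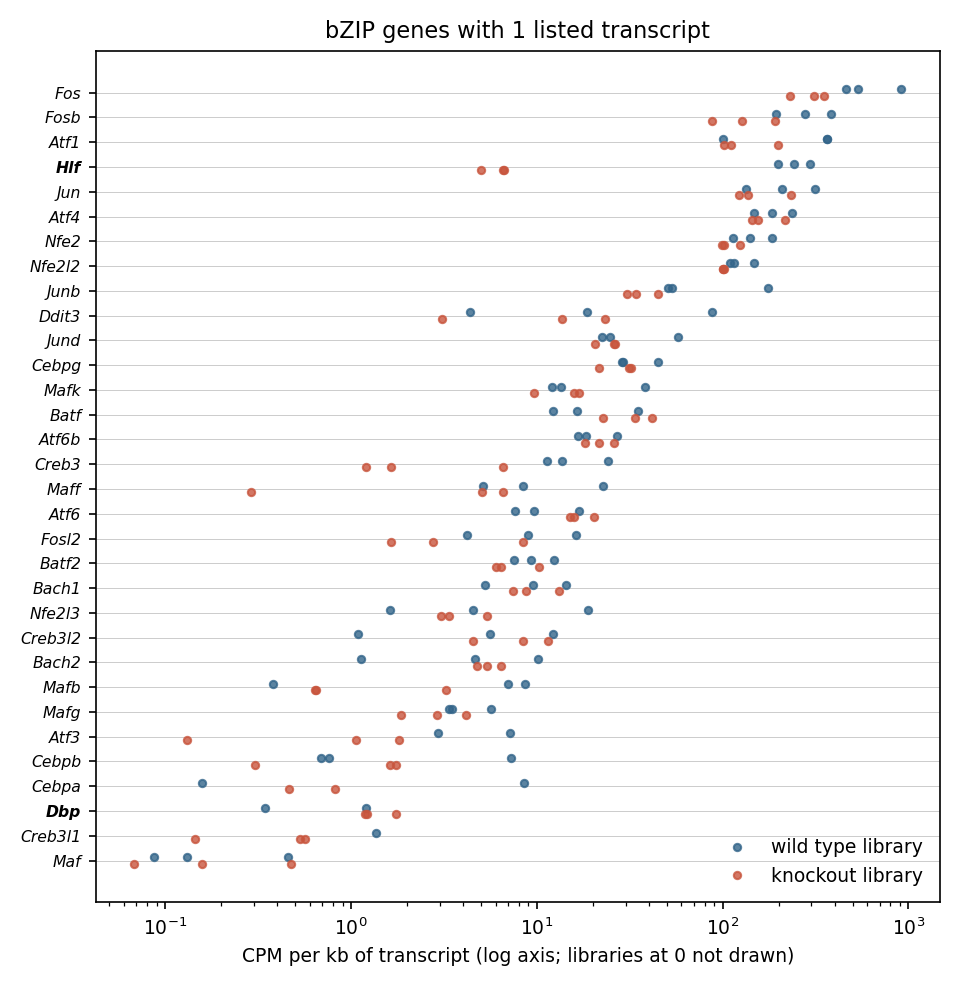
Level per length of 32 tested bZIP genes with 1 listed transcript, in CPM per kilobase on a log axis, 1 point a library, genes in order of the wild-type mean. Hlf, in bold, goes from rank 4 in the wild-type mean to 19 in the knockout mean, and Dbp, in bold, from 30 to 27.

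Genes that the family is known to act on were read in the same libraries, from a list chosen with earlier results of these data known. Of 15 genes known as targets of PAR bZIP proteins in other tissues or of the E2A-HLF fusion, 7 were tested and none passed. The others, among them Nr1i3, Cyp2a5, Cyp2b10, Cyp2c50, Cyp7a1 and Ppara, had 0 counts in all 6 libraries, or too few to test (Bcl2l14 and Snai2). Of those at 0, Nr1i3, Cyp2c50 and Ppara have several listed transcripts. Of the 7, 6 had negative log2 fold changes, with a median of -0.77, and 2 were lower at an unadjusted p under 0.05, also without overlap (28.6%, against 6.85% of all tested genes lower without overlap). The 2 became 1 when wild-type library 3, or either of knockout libraries 2 and 3, was left out, and 3 without wild-type library 1, where the median was -1.19. Of all tested genes 474 of 10204 were lower at that p with every library. It was 647 of 10688 without wild-type library 3 and 547 of 10885 without wild-type library 1. Without knockout libraries 2 and 3 in turn it was 309 of 10756 and 419 of 10746. Aldh1a1, an aldehyde dehydrogenase of retinoic acid synthesis, stood at 384.1, 329.4 and 263.2 CPM in wild type and 214.1, 84.9 and 87.1 CPM in knockout. The fitted change was -1.34 on the log2 scale (SE 0.37, adjusted p = 0.466 by edgeR). Abcb1a, the gene of a drug efflux pump, stood at 40.8, 19.0 and 48.6 CPM in wild type and 14.8, 3.77 and 1.91 CPM in knockout, or -2.40 on the log2 scale (SE 0.86, adjusted p = 0.573 by edgeR). For both genes each wild-type library was above each knockout library, and knockout library 1 was the highest of its group. The haem enzyme gene Alas1 varied from 5.34 to 89.0 CPM within wild type alone. Pdxk, the pyridoxal kinase of vitamin B6 metabolism, stood at -0.49 (SE 0.47), and Lmo2, a stem cell and leukaemia gene with 4 listed transcripts, at -1.61 (SE 1.34). Bcl2, the survival gene known downstream of E2A-HLF, stood at 0.18 (SE 0.28).

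Clock genes, which in other tissues drive the family and are in turn its targets, gave 14 tested members of 18, and none passed. Negative log2 fold changes were found for 10, and the median was -0.39. At an unadjusted p under 0.05 by edgeR, 5 (35.7%, against 4.65%) were lower and 0 higher. Like the other lists, this one was chosen with earlier results of these data known, so its share is no independent test. Per1, a repressor of the clock with 2 listed transcripts, stood at 11.7, 18.7 and 6.98 CPM in wild type and 1.46, 1.22 and 0.866 CPM in knockout. On the log2 scale it gave -3.38 (SE 1.18, adjusted p = 0.563 by edgeR and 0.00566 by DESeq2), and every wild-type library was above every knockout library. Per3, with 1 listed transcript, stood at 123.4, 88.5 and 79.8 CPM in wild type and 59.65, 42.5 and 33.0 CPM in knockout, likewise without overlap (-1.11, SE 0.40, edgeR adjusted p = 0.572). Bhlhe40 (-2.30, SE 0.78) and Cry2 (-1.71, SE 0.77) overlapped between genotypes, as did Ciart, the fifth gene, named after its values were seen. Bhlhe40 was highest in wild-type library 3 (169.3 CPM), and without that library it stood at -1.49. Cry2 stood at -0.93 without wild-type library 1. The 5 clock genes lower at that p became 2 by limma-voom, with a replicate block, and when wild-type library 1 or either of knockout libraries 2 and 3 was left out. They became 3 when either of the other wild-type libraries, or knockout library 1, was left out. The background differed between these fits too. Of all tested genes, 474 of 10204 were lower in the main fit, 416 by limma-voom and 348 with the replicate block. With 1 library left out, the number ran from 309 of 10756 (knockout library 2) to 647 of 10688 (wild-type library 3). Clock itself, the activator, stood at -0.14 (SE 0.55), and Arntl, the BMAL1 gene with 2 listed transcripts, had 11 counts in wild-type library 3 and 0 elsewhere.

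**Figure D4:**
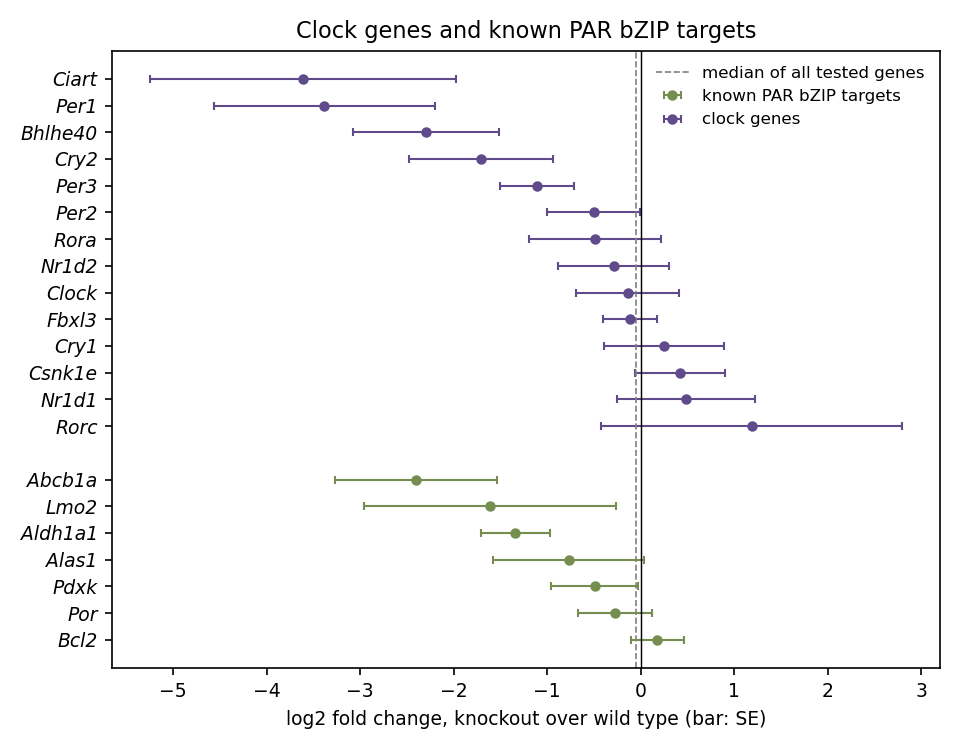
Log2 fold change of knockout over wild type with its SE for 14 tested clock genes (upper block) and 7 tested targets (lower block), sorted within each. The dashed line is the median of all tested genes at -0.05, and 16 of the 21 points lie below 0.

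Genes with a D-box near their start were then picked by sequence alone. The spellings TTACGTAA, which reads the same on both strands, and TTATGTAA, which reads TTACATAA on the other, were searched in RefSeq windows from 250 bases before to 50 after each annotated start. At least 1 stood in 347 of 32851 windows (1.06%), and 68 of 8052 tested genes with a window had such a window. None of the 68 passed edgeR's test, against 1 of the 8052. By DESeq2 1 of the 68 passed, Slc16a12 (adjusted p = 0.000437), against 119 of the 8052, a like share. Their median log2 fold change was -0.18, against -0.04 for all 8052 genes, and 42 were negative (61.8%, against 52.5%). At an unadjusted p under 0.05, 8 were lower (11.8%, against 4.36% of the 8052) and 1 higher (1.47%, against 2.71%). Without overlap 10 were lower (14.7%, against 6.53%) and 4 higher (5.88%, against 7.58%). The median turned positive, 0.04, without wild-type library 1, where that of all genes with a window was 0.015. In that fit 5 of the 68 were lower and 6 higher at that p, against 388 and 314 of the 8052. The count of lower genes was also 5 without knockout library 1 or without knockout library 2. The background fell as well in these fits, to 245 of 8047 and 206 of 8048 genes with a window, from 351 of 8052.

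**Figure D5:**
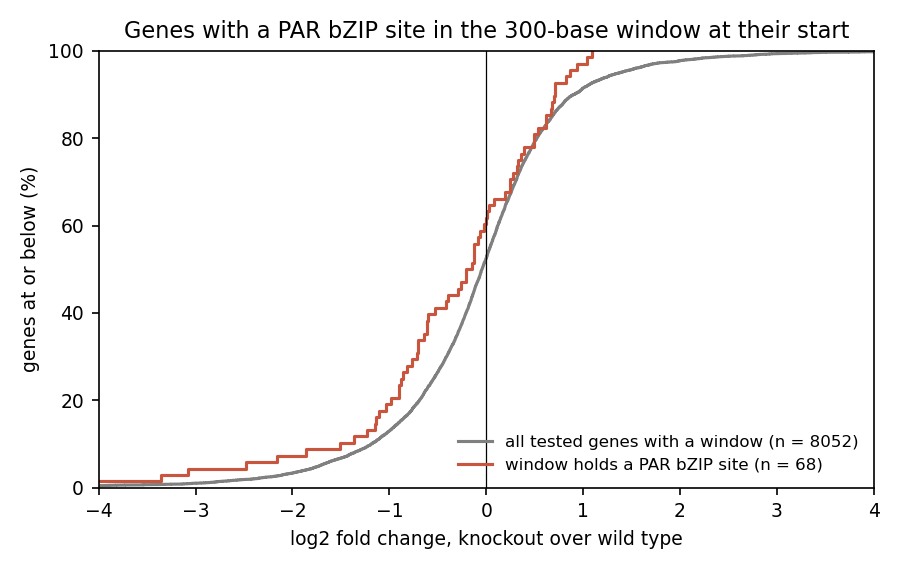
Cumulative share of genes, in percent, by log2 fold change of knockout over wild type, for all 8052 tested genes with a promoter window (grey) and the 68 whose window holds TTACGTAA or TTATGTAA (red). The red line runs above the grey one below 0, where 61.8% of its genes lie against 52.5%, and values beyond 4 in either direction are outside the axis.

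Per3 was the 1 gene of the clock and target lists with such sites among those tested, and its window held 2. RefSeq gives the 250 bases before its start on the minus strand of GRCm38.p6, chr4:151044666-151044915, with both sites in capitals. The sites begin 205 and 158 bases before the start.
Per3: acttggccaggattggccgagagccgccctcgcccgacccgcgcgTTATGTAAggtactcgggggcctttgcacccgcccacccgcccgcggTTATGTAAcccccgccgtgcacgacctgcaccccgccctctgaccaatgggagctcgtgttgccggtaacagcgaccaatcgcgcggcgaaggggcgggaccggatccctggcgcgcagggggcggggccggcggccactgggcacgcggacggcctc
Per1 has 2 windows in the table and neither held a site, which says only that these letters are not in them.

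The other genes with a site and an unadjusted p under 0.05 were chosen after their values were seen. Each is printed with 10 bases on either side, on the strand of the gene, to show the 2 spellings in place, with the site in capitals.
Slc16a12: ggcctaagcaTTACATAAcctggaggcg
Ogt: gggcggaaggTTACGTAAgagcaaatga
Prnp: caactacccaTTATGTAAcgggagcatt
Zscan26: atggtctgatTTATGTAAatgaaatctt
Peli2: tactctatgtTTACATAAcacggggcgc
Dhx37: gcccccttatTTACATAAggaccgccca
Myct1: ttacttccttTTATGTAAacacaagtat
Hdgf: ccaccaccgcTTACATAAcggaggcgat
In GRCm38.p6 these stretches lie at chr19:34747387-34747414 (minus strand) for Slc16a12, chrX:101639949-101639976 (plus) for Ogt, chr2:131909681-131909708 (plus) for Prnp and chr13:21453832-21453859 (minus) for Zscan26. Those of Peli2, Dhx37, Myct1 and Hdgf lie at chr14:48120745-48120772 (plus), chr5:125434219-125434246 (minus), chr10:5593720-5593747 (plus) and chr3:87906836-87906863 (plus).

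Values of these genes differed widely in level. Ogt, the enzyme that adds N-acetylglucosamine to proteins in the nucleus and cytosol, carries the palindromic spelling and stood at 636.6, 524.0 and 427.2 CPM in wild type and 364.2, 339.7 and 264.9 CPM in knockout. The fit gave -0.71 on the log2 scale (SE 0.23, adjusted p = 0.504 by edgeR). Prnp, the prion protein gene, stood at 630.7, 475.4 and 529.2 CPM in wild type and 318.7, 373.0 and 388.8 CPM in knockout (-0.60, SE 0.21). Slc16a12, a transporter gene, had its lowest wild-type value in library 2 (1.25 CPM, against 58.65 and 29.1 CPM) and at most 0.732 CPM in knockout (-6.21, SE 1.54). The ubiquitin ligase gene Peli2 stood at -1.86 (SE 0.67), Zscan26 at -0.86 (SE 0.30), Myct1 at -0.70 (SE 0.29) and the RNA helicase gene Dhx37 at -1.36 (SE 0.51). All but Dhx37 were without overlap. Hdgf, a growth factor gene, was the 1 with higher values, at 374.0, 416.7 and 422.0 CPM in wild type and 594.0, 617.0 and 550.8 CPM in knockout (0.54, SE 0.19).

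The genes whose pattern over the 6 libraries was most like that of Hlf were found by the root mean square difference of log2 CPM, each gene centred on its own mean, over 8462 genes. The 5 nearest were Arhgap32 (0.73), Prtn3 (1.06), Per1 (1.17), Lonrf3 (1.22) and Abcd4 (1.31). Being chosen for their likeness to Hlf, all 5 were lower in every knockout library, which is therefore no separate result. None passed edgeR's test. Arhgap32 stood at 26.7, 48.4 and 11.2 CPM in wild type and at 0.64, 1.88 and 0.779 CPM in knockout, with library 2 the highest and library 3 the lowest of the wild type, as for Hlf. It has 2 listed transcripts, as Per1 has. Prtn3 is one of the granulocyte-monocyte markers and, unlike Hlf, was highest in wild-type library 3 (367.0 CPM, against 122.1 and 70.7 CPM). Abcd4, a transporter of cobalamin, went from 28.4, 59.9 and 32.2 CPM to 4.21, 7.91 and 4.59 CPM. Those most like Dbp over 8463 genes were Dnajc4 (0.30), Tbc1d12 (0.34), Sgsm3 (0.35), Lhpp (0.37) and Pimreg (0.37). By the same kind of choice, each had its lowest value in wild-type library 2, where Dbp was at 0.

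The genes beside Hlf on chromosome 11 are Stxbp4, a syntaxin-binding protein gene, and Mmd. Stxbp4 stood at 296.2, 152.2 and 200.2 CPM in wild type and 90.4, 95.4 and 61.6 CPM in knockout, without overlap (-1.39, SE 0.33, edgeR adjusted p = 0.429, DESeq2 adjusted p = 0.0114). Mmd overlapped between genotypes, from 0.312 to 40.7 CPM in wild type (0.57, SE 1.05). Beside Dbp, the ribosomal protein gene Rpl18 stood at 0.24 (SE 0.23) and Car11 at 0.42 (SE 2.03), and beside Nfil3, Auh stood at -0.70 (SE 0.79) and Ror2 at -0.77 (SE 1.79). The genotypes overlapped for all 4. Auh and Ror2, like Nfil3, were highest in wild-type library 3, at 55.3 and 7.31 CPM.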

How the data were processed

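The authors deposited raw read counts per RefSeq transcript for 6 libraries. Per the submitters' processing notes, TopHat and build mm9 were used. The counting tool, annotation release, use of strand and treatment of shared reads are unstated there and in the labels. Transcripts were named from RefSeq GRCm38.p6 and GENCODE M21 tables and summed to 23574 features, of which 316 kept an accession. edgeR 4.0.16 in R 4.3.3 was run with TMM factors, filterByExpr (minimum count 10) and the robust quasi-likelihood test of all 6 libraries without covariates, with Benjamini-Hochberg adjustment over 10204 genes and a threshold of 0.05. Intervals are 95%, and 2 was the prior count for log2 CPM. Lengths are those of GENCODE M21 transcripts. Scripts were tested on simulated data. DESeq2 1.42.0, limma-voom (limma 3.58.1), other filters and scaling, a replicate block, single transcripts, thinned libraries and leaving out each library were tried. Counting intervals cover counting error only. Members and lists were chosen with earlier results of these data known. Named genes are the 4 members, the 4 of smallest p in each list, 5 of most similar pattern, the sort genes and annotated neighbours. Alas1, Bcl2, Clock, Arntl, Cebpe, Zbtb16, Atf1, Ciart and the genes with a site were named outside this rule, after their values were seen.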

Additional observations from a re-analysis of the deposited data

How the results depend on the processing

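Hlf passed under all 14 alternatives, and its log2 fold change ran from -5.46 to -5.17 with 1 library left out. Dbp kept its positive sign and passed under none of 13 alternatives that could fit it (0.84 to 2.98 with 1 library left out), and the stricter filter on low counts did not test it. Tef and Nfil3 did not pass the filter, so their values are differences in mean CPM, knockout minus wild type, which ran from -1.26 to -0.11 for Tef and from -4.19 to 0.142 for Nfil3 with 1 library left out. With no filter, edgeR gave Nfil3 an unadjusted p of 0.196 and Tef, at 0 in every knockout library, 0.048, and neither passed after adjustment (0.667 and 0.578).

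The count of genes called, 1 by edgeR, was 9 with no filter on low counts, 170 by DESeq2 and 2 with a replicate block, and ran from 1 to 3 with 1 library left out (3 without wild-type library 1, 2 without wild-type library 2). Genes with a PAR bZIP site and lower values at an unadjusted p under 0.05 numbered 8 of 68 by edgeR and 14 of 68 by DESeq2. Of all genes with a window, 351 of 8052 were lower at that p by edgeR and 598 by DESeq2. With TTACGTAA alone the count was 1 of 16. It ran from 5 to 11 with 1 library left out, while that of all genes with a window ran from 206 of 8048 to 482 of 8052. The cause of these differences was not tested. Same-numbered libraries did not visibly deviate together from their group means (r of -0.01, -0.022 and 0.02 across genes). Differently numbered libraries gave r from -0.039 to 0.047. With 3 libraries a genotype, these values cannot settle whether the numbers pair the samples. Under the replicate block Hlf stood at -5.32 and Dbp at 2.28. Precision for Dbp, Tef and Nfil3 is low, since their largest count in any library was 78, and thinning all libraries to the shallowest left Dbp at 1.35.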
